A study of Mus musculus with 8 samples.

Results

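Neutrophil granule genes were followed across leukocytes of the mouse brain, pia and dura after stroke. They comprised 10 of the 30406 genes shared by all libraries, listed by their known place in the granules: the primary granule genes Elane, Mpo and Prtn3, and the secondary and tertiary granule genes Ltf, Camp, Ngp, Lcn2, Pglyrp1, Cd177 and Hp. Their unique molecular identifiers (UMIs, counted transcripts) were summed per library over the cells of each annotated cluster and are given as CPM, the counts per 1000000 of those summed UMIs.

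Neutrophils make their granules in sequence while they mature in bone marrow. Promyelocytes transcribe the serine proteases and the peroxidase of primary granules, myelocytes and metamyelocytes transcribe the iron-binding and antimicrobial proteins of secondary granules, and tertiary granule genes follow. Segmented neutrophils keep the proteins but have largely stopped transcribing these genes, and instead express chemokine and growth factor receptors such as Cxcr2 and Csf3r. Transcript levels of granule genes can therefore reflect the stage of a neutrophil rather than its protein content, and need not do so for every member.

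Single-cell RNA-sequencing was performed on CD45iv-CD45+ leukocytes, sorted as negative for a CD45 antibody given intravenously, which marks cells in blood. Mice were male C57BL/6 wild-type animals of 10 to 16 weeks, and transient middle cerebral artery occlusion (MCAO) in the study lasted 30 or 45 min. The 8 libraries comprised brain parenchyma from controls (1 library), at 24 h after MCAO (2 libraries, replicates 1 and 2) and at 72 h (1 library), and pia and dura, each from controls (1 library) and at 24 h (1 library). The dura was dissected from the skullcap, and the control animals were untreated or sham-operated according to different passages of the study. The study states that the experiments were repeated and animals pooled per compartment, but the sources used here assign neither mice nor occlusion time to a library, so a p-value measures the spread between these libraries, which may be technical. For the control library of pia, the title reads brain, whereas its other labels name pia.

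The libraries held 6569523 to 20705125 UMIs, and 32457 of 36854 barcodes carried a cluster in the authors' annotation. Cluster Granulo_2 held 1270 of these cells, of which 47 and 202 were in brain at 24 h (replicates 1 and 2), 373 in brain at 72 h, 129 in pia at 24 h and 359 in dura at 24 h. Controls held 4 such cells in brain, 10 in pia and 146 in dura. Control brain and control pia, with under 30 such cells, are given as values but entered no test within Granulo_2. The brain library at 72 h and replicate 2 of brain at 24 h were counted against a list of 31053 genes and the other 6 libraries against 32285 genes. These 2 libraries shared 13 barcodes, pairs across the lists shared 0 to 2, and pairs among the other 6 shared 12 to 43. The kit listed by the study was version 3 for brain at 72 h and dura at 24 h and version 2 for the rest. Shared barcodes group the libraries otherwise. Dura at 24 h shared 1 barcode with brain at 72 h and 35 with control brain. This conflict was not resolved.

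Neutrophil identity of Granulo_2 was checked with markers. All 8 neutrophil markers (S100a8, S100a9, Csf3r, Cxcr2, Retnlg, Ly6g, Mmp9 and Mmp8) were detected in each of the 6 larger libraries, with a summed level of 123121 to 310347 CPM. The 5 eosinophil markers (Siglecf, Prg2, Epx, Ccr3 and Il5ra) summed to 3.80 to 55.1 CPM in these libraries, with 1 or 2 of 5 detected and Epx, Ccr3 and Il5ra at 0 UMIs, and 7 monocyte markers summed to 519.7 to 958.0 CPM in the 6 larger libraries. Cluster Granulo_1 went against its label: in its 7 libraries with at least 30 cells the neutrophil markers summed to 88.6 to 3785 CPM, Ly6g was at 0 UMIs in 6 of them, and all 7 monocyte markers were detected at 3576 to 8288 CPM summed. It is therefore called only by its label.

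Granule genes of the same role lie close together in part. In GENCODE M21 (GRCm38), Camp (9:109847379-109849617, minus strand), Ngp (9:110419747-110423012, plus strand) and Ltf (9:111019271-111042767, plus strand) lie within 1195389 bases of chromosome 9, and the end of Prtn3 (10:79874476-79883174) is 3072 bases ahead of the start of Elane (10:79886247-79888215), both on the plus strand of chromosome 10. Mpo lies at 11:87793581-87804413, Lcn2 at 2:32384633-32388252, Hp at 8:109575128-109579172, and Pglyrp1 and Cd177 at 7:18871331-18890459 and 7:24743983-24760311. All 10 are protein-coding genes.

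Upstream sequence is shown for a pair of genes from each role, because the levels of the roles differed between libraries. The RefSeq promoter table (GRCm38.p6) matched 9 members and held no entry for Hp. The windows begin 150 bases ahead of the RefSeq start and end before the nearest GENCODE exon, and the window of Prtn3 lies within an intron of a longer GENCODE transcript. Capitals mark TTGCNNAA on either strand, the core letters of C/EBP sites, in Ltf and Ngp, and GAGGAAGT, a PU.1-type purine-rich motif, in Elane and Prtn3:
Ltf, chr9:111019142-111019270, plus strand: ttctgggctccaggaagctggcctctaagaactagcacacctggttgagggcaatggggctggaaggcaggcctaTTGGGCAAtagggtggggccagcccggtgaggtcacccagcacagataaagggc
Ngp, chr9:110419658-110419746, plus strand: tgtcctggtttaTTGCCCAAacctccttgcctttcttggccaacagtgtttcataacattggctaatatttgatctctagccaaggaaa
Elane, chr10:79886162-79886246, plus strand: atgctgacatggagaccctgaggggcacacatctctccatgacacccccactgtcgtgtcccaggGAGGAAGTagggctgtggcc
Prtn3, chr10:79879517-79879613, plus strand: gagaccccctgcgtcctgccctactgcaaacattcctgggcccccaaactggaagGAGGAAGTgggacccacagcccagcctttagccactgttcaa

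On both strands of the 250 bases upstream, TTGCNNAA was found in 3 of 9 members (Ltf, Ngp and Lcn2) and in 9.55% of 27025 promoters. GAGGAAGT was found in 3 of 9 members, which were Elane, Prtn3 and Mpo, and in 2.44% of promoters. The motifs do not overlap each other in these windows. They were chosen after the sequences had been seen, and a match describes letters, not binding.

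Transcripts of most secondary granule genes were found almost entirely in Granulo_2. Of the annotated UMIs of all libraries, Granulo_2 held 98.8% for Ltf, which encodes the iron-binding protein lactoferrin, 98.3% for Camp, the precursor of the cathelicidin antimicrobial peptide, and 98.1% for Ngp, a neutrophilic granule protein of the cystatin and cathelicidin family. The share was 93.5% for Lcn2, which binds bacterial siderophores, 87.1% for Pglyrp1, a peptidoglycan recognition protein, and 75.4% for Cd177, a surface glycoprotein of neutrophils. Hp, which encodes the hemoglobin-binding protein haptoglobin, was spread more widely, with 55.5% in Granulo_2 and 33.2% in Granulo_1. Clusters were built from these same counts, so the shares are descriptions.

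Primary granule genes were less bound to Granulo_2. Of the annotated UMIs of Elane (neutrophil elastase), 42.9% were in Granulo_2 and 41.2% in prolif_cells, the annotated cluster of proliferating cells. Mpo (myeloperoxidase, which makes hypochlorous acid) had 27.0% and 41.0% there. Prtn3 (proteinase 3) had 24.2% and 36.6%, and a further 20.9% in Granulo_1. The plot of UMI location shows this contrast between the roles.

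**Figure D1:**
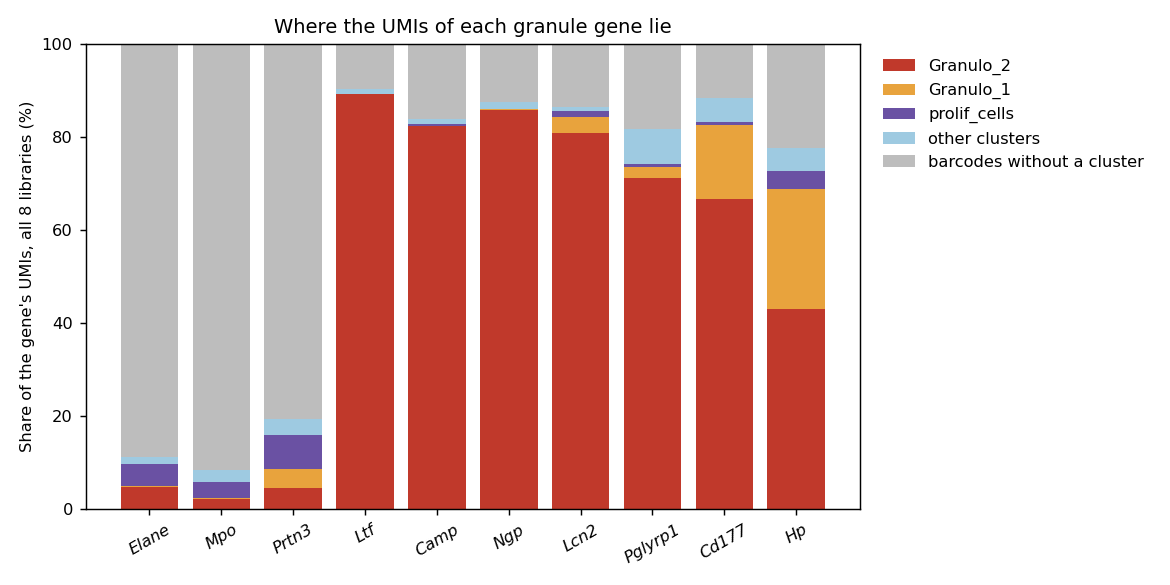
Location of the UMIs of each granule gene, as percent of its UMIs over all 8 libraries (y axis), with bar segments for Granulo_2, Granulo_1, prolif_cells, other clusters and barcodes without a cluster. Ltf, Camp and Ngp lie mostly in Granulo_2, whereas 88.7% of Elane, 91.6% of Mpo and 80.5% of Prtn3 UMIs were in barcodes without a cluster.

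Outside Granulo_2, levels were lower for the secondary granule genes. Over libraries with at least 30 cells of a cluster, the next highest mean level of Pglyrp1 was in NK cells, at 260 ± 97.7 CPM (SD, n = 6). For Hp it was in Granulo_1, at 761 ± 485 CPM (SD, n = 7), and for Elane the highest mean of any cluster was in prolif_cells, at 1013 ± 954 CPM (SD, n = 3). The SD of Elane was nearly as large as its mean.

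Over all libraries together, most UMIs of the primary granule genes lay in barcodes that the annotation left without a cluster. These 4397 barcodes made up 6.42% to 20.2% of a library and held 88.1% of the UMIs of Elane, Mpo and Prtn3 (36773 UMIs, against 4976 UMIs in annotated cells). Dura at 24 h alone held 25821 of the 36773 UMIs. By library the share was 24.2% in brain at 24 h replicate 1, 46.9% in brain at 72 h and 81.6% to 100% in the other 6. For the secondary granule genes the pooled share was lower, at 9.70% for Ltf, 12.5% for Ngp and 16.2% for Camp. By library, the share of these 3 genes together was 46.2% in brain at 24 h replicate 1, above its primary share. It was 72.5% in control brain and 0.247% to 18.2% in the other 6. In 125 barcodes without a cluster, at least 10 UMIs of the primary genes were present, and 116 of these barcodes had more genes than any annotated cell of their library. They held a median of 3367 genes and 13563 UMIs. The study set upper limits of 1500 to 3000 genes per cell and removed doublets, and which step left out which barcode was not tested. In these barcodes Elane stood at 10251 CPM and Mpo at 6935 CPM, while Ngp stood at 5508 CPM, Camp at 4126 CPM and Ltf at 123 CPM. The limit on primary UMIs partly fixes these levels, and as a fixed number of UMIs it favours deep barcodes. Monocyte markers summed to 2861 CPM and cell cycle genes to 11988.5 CPM in them, and their part in these levels was not tested. Of the 125 barcodes, 72 were from dura at 24 h, 19 from control dura, 9 from brain at 72 h, 17 from brain at 24 h replicate 2, 7 from pia at 24 h and 1 from control brain.

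Among annotated cells, 18 Granulo_2 cells and 19 prolif_cells held at least 10 UMIs of Elane, Mpo and Prtn3. All 18 Granulo_2 cells also held at least 10 UMIs of Ltf, Camp and Ngp, and their Ngp stood at 71559 CPM. These 18 cells held a median of 9089.5 UMIs, and a limit set as a fixed number of UMIs favours deep cells. In the 19 prolif_cells Ngp stood at 217 CPM, Camp at 1610 CPM, Lcn2 at 1222 CPM and Ltf at 0 CPM. Clusters were built from these same counts, which partly fixes this contrast between the clusters. Elane was at 6156 CPM in the former and 6105 CPM in the latter, and the limit on primary UMIs partly fixes these levels. Monocyte markers summed to 869 CPM in the 18 Granulo_2 cells and 5073 CPM in the 19 prolif_cells, and their part in this contrast was not tested.

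Levels in Granulo_2 were then set side by side by tissue, to ask how far neutrophils of the dura differ in stage from those of brain and pia. The larger brain and pia libraries all came after stroke, whereas dura had 1 control library and 1 library at 24 h. Tissue and stroke are therefore partly mixed, and the pooled comparison cannot fully tell them apart. Ngp stood at 103128 CPM in control dura and 117645 CPM in dura at 24 h, against 44358 and 26240 CPM in brain at 24 h (replicates 1 and 2), 18619 CPM in brain at 72 h and 52465 CPM in pia at 24 h. Both dura libraries were above these larger brain and pia libraries. The 10 cells of control pia, at 107840 CPM, fell within the dura range, while the 4 cells of control brain stood at 54481 CPM. Camp was at 42298 and 34859 CPM in the dura and at 13360, 21254, 17577 and 17226 CPM in the same order of brain and pia libraries. Camp again did not overlap between the dura and the larger brain and pia libraries. The 2 small control libraries held 28571 CPM (brain) and 41858 CPM (pia) of Camp, the latter within the dura range.

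Ltf was closer between the tissues. It stood at 8752 CPM in control dura and 9232 CPM in dura at 24 h, against 5191 and 8572 CPM in brain at 24 h, 6015 CPM in brain at 72 h and 5546 CPM in pia at 24 h. The higher brain library lay just under control dura. Summed over Ltf, Camp and Ngp, dura held 157957 ± 5345 CPM (SD, n = 2) and brain and pia 59106 ± 13776 CPM (SD, n = 4), a ratio of 2.67. S100a8 and S100a9 take a large share of Granulo_2 UMIs, and without them in the total the ratio was 2.69. Ltf alone then stood at 12037 CPM in brain at 24 h replicate 2, above 10924 CPM in control dura and 11244 CPM in dura at 24 h. When each cell had equal weight the ratio was 4.95.

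Few cells carried these transcripts in some brain and pia libraries. In brain at 24 h replicate 1, all UMIs of Ngp came from 5 cells and all UMIs of Camp and Ltf from 4 cells of 47. In pia at 24 h, the 5 highest cells held 50.3% of the Ngp UMIs. In dura at 24 h the 5 highest cells held 8.24% of them, so a dura level rests on many more cells.

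Among the other secondary and tertiary granule genes, Pglyrp1 also separated the tissues. It stood at 4618 and 4912 CPM in the dura and at 2437, 3113, 1764 and 3259 CPM in brain at 24 h replicates 1 and 2, brain at 72 h and pia at 24 h. Cd177 overlapped, at 1148 and 1261 CPM in the dura and 447, 1298, 889 and 987 CPM in the others. For Hp, 2502 and 3496 CPM in the dura lay within 3126, 1735, 918 and 3672 CPM in the others. Lcn2 departed from its group: brain at 24 h replicate 2 held 16823 CPM and brain at 72 h 8757 CPM, above 4366 and 4451 CPM in the dura, 3358 CPM in pia at 24 h and 2921 CPM in brain at 24 h replicate 1. The 2 libraries with the highest Lcn2 level are those with the shorter gene list, and its part in their level was not tested. More Granulo_2 cells held a UMI of Lcn2 or Hp than of Ltf. In brain at 24 h replicate 2 the shares were 84.2%, 83.7% and 41.6%, and in pia at 24 h 61.2%, 84.5% and 17.1%. In dura at 24 h they were 86.4%, 93.6% and 63.0%. Whether Lcn2 and Hp follow the stage of these cells was not tested.

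Primary granule gene levels were highest in dura and brain at 72 h, and rested on few cells there. Elane stood at 907 CPM in control dura, 527 CPM in dura at 24 h and 536 CPM in brain at 72 h, against 0 and 1.6 CPM in brain at 24 h and 15.3 CPM in pia at 24 h. Mpo was at 209, 199 and 155 CPM in the same 3 libraries, at 0 CPM in both brain libraries at 24 h and at 7.65 CPM in pia at 24 h. Prtn3 was at 212, 166 and 318 CPM, then 18.6 and 7.98 CPM in brain at 24 h and 15.3 CPM in pia at 24 h. In control dura 6 of 146 cells held 97.8% of the UMIs of these 3 genes, and in dura at 24 h 7 of 359 cells held 90.5%. The remaining cells stood at 29.0 and 84.9 CPM summed over the 3 genes, close to the 27.6 and 95.4 CPM of the lymphoid clusters of the same libraries. All 3 genes were at 0 UMIs in Granulo_2 of control brain and control pia. At those depths 0 UMIs allow up to 532 CPM in control brain and 119 CPM in control pia (3 counts per library, covering counting error only).

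**Figure D2:**
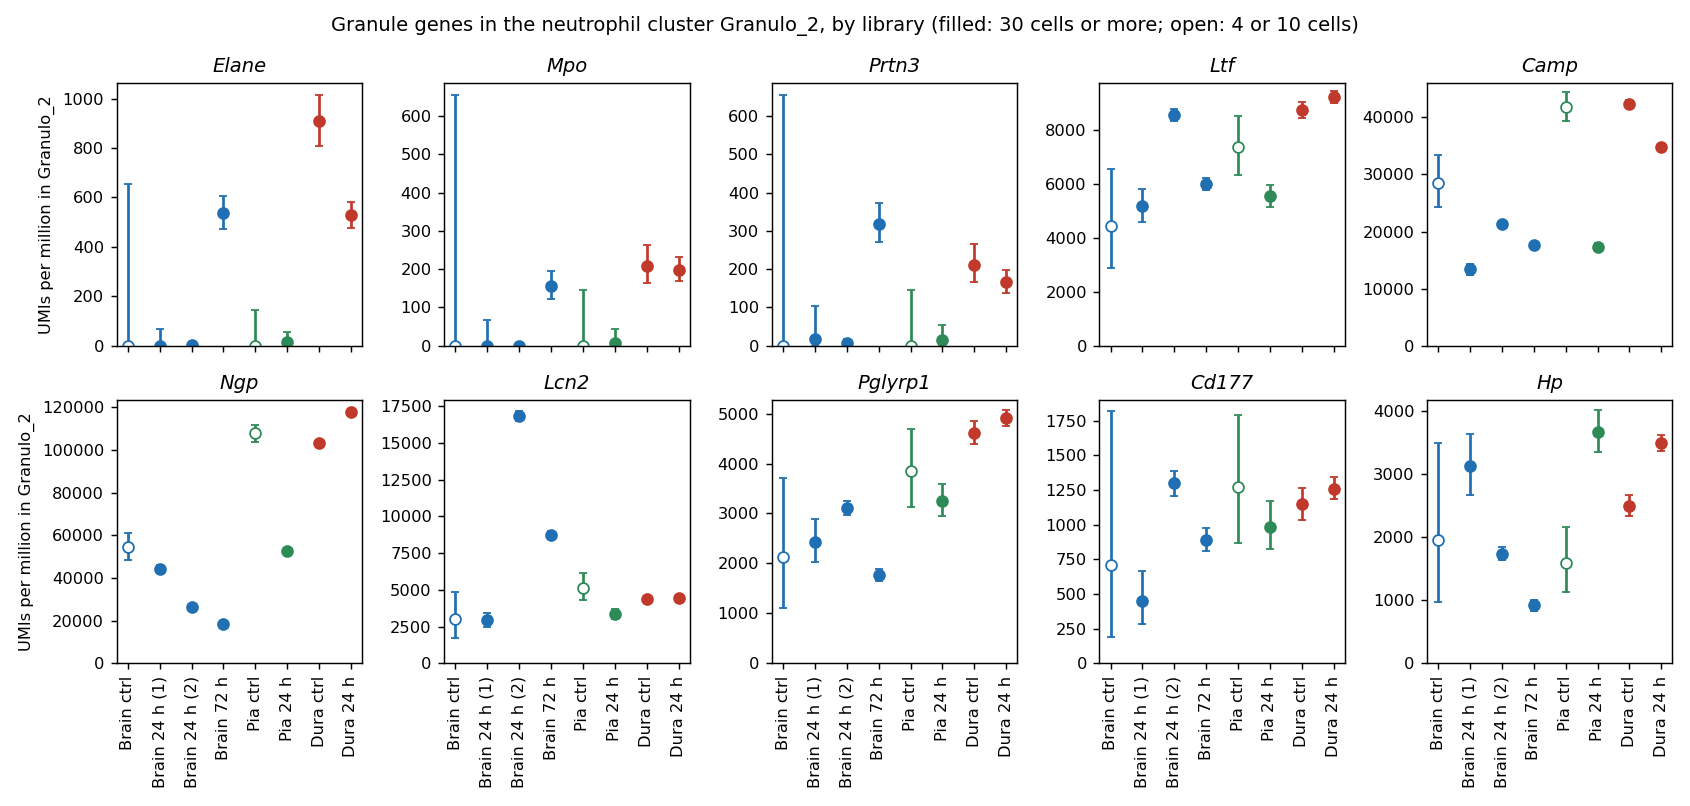
Level of each granule gene in Granulo_2 (y axis, CPM from 0) in the 8 libraries (x axis; blue, brain; green, pia; red, dura), with points for libraries and bars for the exact Poisson 95% interval, which covers counting error only. Open symbols are libraries with under 30 Granulo_2 cells. Ngp, Camp, Ltf, Pglyrp1 and Mpo had both dura libraries above the 4 larger brain and pia libraries, as had 13.4% of all genes tested.

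In this comparison of tissues, 5 of 10 members (Mpo, Ltf, Camp, Ngp and Pglyrp1) had both dura libraries above all 4 brain and pia libraries, as had 13.4% of the 4365 genes tested. For Ltf and Mpo the counting intervals overlapped, and Ltf lost this order without S100a8 and S100a9 in the total. Of the members, 0 of 10 had both below, as had 14.9% of genes. No member passed the test across all genes. By edgeR's quasi-likelihood test with Benjamini-Hochberg adjustment, 164 of 4365 genes differed (3.76%) by at least 2-fold with an adjusted p under 0.05, of which 66 were higher in dura (1.51%) and 98 lower (2.25%). The count of members was 0 of 10, with Ngp, Camp and no other member at an unadjusted p under 0.05, as were 1144 of all genes. DESeq2 called 154 of 4365 genes (44 higher and 110 lower) and 1 of 10 members, Ngp.

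The estimate was positive for 9 of 10 members, with a median log2 fold change of 1.06 against -0.16 over all genes tested. Ngp had a log2 fold change of 1.73 ± 0.63 (SE, 95% interval 0.40 to 3.07, adjusted p = 0.112) and Camp 1.27 ± 0.55 (adjusted p = 0.164). Pglyrp1 stood at 0.95 and Ltf at 0.63 on the log2 scale. Lcn2 was the member with a negative value, at -0.73 ± 0.74 (adjusted p = 0.542). For Elane the value was 2.54 ± 1.49 (adjusted p = 0.319), with brain at 72 h at the level of dura.

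Single libraries decided the calls on members. Without brain at 72 h, Elane (7.29, adjusted p = 0.00476), Mpo (6.92) and Prtn3 (4.07, both adjusted p = 0.00667) were higher in dura, as were 1.2% of genes. Here and in the setting of the longer gene list, these genes passed the filter on low counts only through the dura libraries. Without pia at 24 h, Ngp was higher (2.17, adjusted p = 0.0335), as were 7.22% of genes. With only the libraries of the longer gene list, added after seeing the data, 5 of 10 members were higher in dura (Elane, Mpo, Prtn3, Camp and Ngp), as were 131 of 2339 genes (5.6%). Lcn2 then turned to 0.52 and Hp to -0.15, neither called. Adjusted p ranged from 0.0165 to 0.735 for Ngp and from 0.0111 to 0.875 for Camp over the alternatives. The number of all genes that differed ranged from 12 to 753 when single libraries were left out, with 12 without dura at 24 h, 26 without control dura, 26 without brain at 24 h replicate 2, 106 without brain at 72 h and 753 without pia at 24 h.

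**Figure D3:**
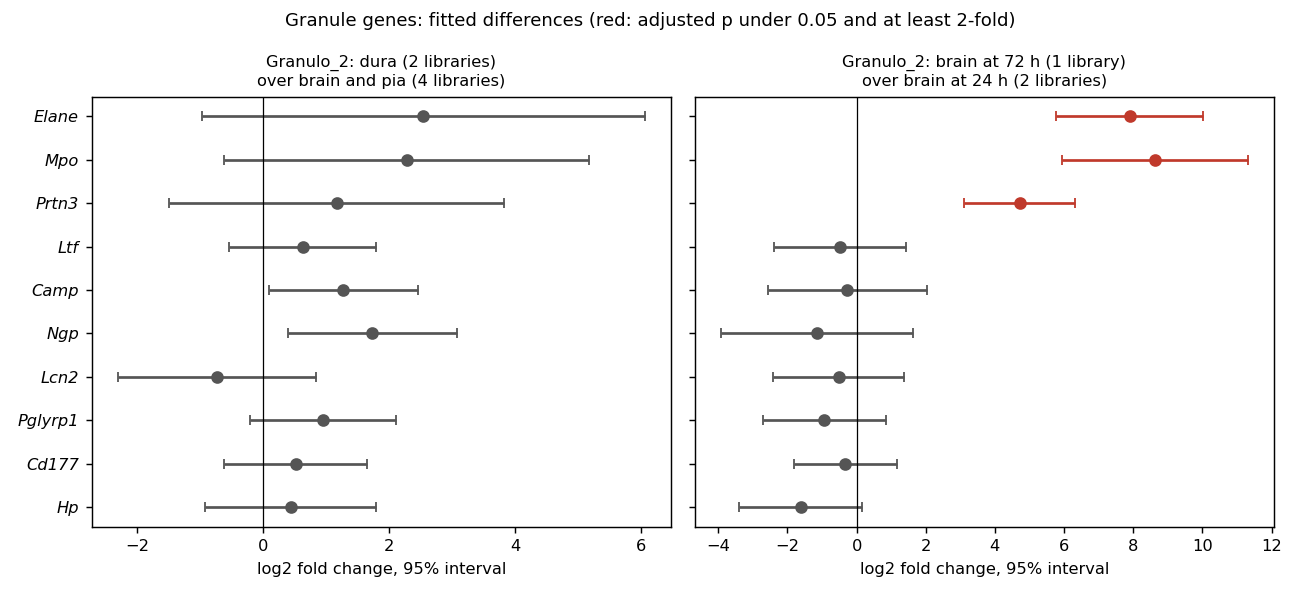
Log2 fold change (x axis) of each granule gene in Granulo_2 in dura over brain and pia (left) and in brain at 72 h over 24 h (right), with points for the estimate, bars for its 95% interval and red where the adjusted p was under 0.05 and the change at least 2-fold. Elane, Mpo and Prtn3 passed in brain at 72 h, and no member passed in dura.

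Lists of other neutrophil genes and of cell cycle genes moved in the same fit. Of 24 mature neutrophil genes tested, 0 were higher and 6 lower in dura (median log2 fold change -1.35), against 2.25% of all genes lower. These 6 were the chemokine gene Cxcl2 (-4.60), Ccrl2 (-3.77), Tnfaip2 (-3.38), the cytokine gene Il1b (-3.21) and the receptor genes Csf3r (-2.46) and Cxcr2 (-2.45). Cd14 (-1.39), Ifitm2 (-1.09) and Slpi (-0.69) did not pass. The mature list thus holds chemokine and cytokine genes beside receptor genes. All larger brain and pia libraries came after stroke, and whether these levels follow maturity or stroke was not tested. Of 21 cell cycle genes, 10 were higher and 0 lower (median 2.21), against 1.51% of all genes higher. Among these 10 were Rrm2, a ribonucleotide reductase subunit, at 2.89 ± 0.65 (adjusted p = 0.029) and Stmn1 at 2.41 ± 0.44 (adjusted p = 0.0115). H2afz (1.75) and Hmgb2 (0.80) did not pass, nor did the proliferation markers Top2a (0.55), Cenpf (0.47) and Mki67 (0.01). These counts also moved with single libraries: without dura at 24 h they were 1 lower and 0 higher, without control dura 0 lower and 4 higher, and without brain at 24 h replicate 2 they were 3 lower and 0 higher. With all libraries of at least 10 Granulo_2 cells they were 1 lower and 0 higher, and with cells thinned to 500 UMIs 0 of 23 lower and 1 of 4 higher.

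Further granule genes outside the 10 members were mostly not called. Of 26 tested, 1 was higher in dura, Ms4a3, a gene of granulocyte-monocyte precursors (2.12 ± 0.55, adjusted p = 0.0479), and 0 were lower (median 0.46). Chil3 (1.24), the lysozyme gene Lyz2 (1.16), Retnlg (0.51) and Wfdc21 (0.38) did not pass. None of 7 regulators of granulopoiesis passed, with Cebpe, a transcription factor needed for secondary granules, at 1.09 (adjusted p = 0.166) and Spi1, Cebpb and Klf2 at -0.39, -0.46 and -1.03. The median over all genes moved from -0.16 to -0.33 when TMM scaling was left out, and the split of calls from 66 higher and 98 lower to 24 and 81.

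A transcript of other cells moved with the tissue as well. The immunoglobulin gene Igkc stood at 165 and 344 CPM in Granulo_2 of control dura and dura at 24 h and at 0 to 38.2 CPM in the 4 larger brain and pia libraries. In lymphoid clusters of the dura libraries it reached 51212 and 50545 CPM. The part of immunoglobulin transcripts in the dura values of the granule genes was not tested.

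Per cell, Ltf, Camp or Ngp was detected in most Granulo_2 cells of dura and in under 50% of those in the 4 larger brain and pia libraries. Cells were thinned to 500 UMIs, because median depth ranged from 701 UMIs in pia at 24 h to 1965.5 UMIs in brain at 24 h replicate 2. A UMI of at least 1 of the 3 genes was found in 86.3% of cells in control dura (95% Clopper-Pearson interval 79.6% to 91.4%) and 88.0% in dura at 24 h (84.2% to 91.2%). The share was 10.6% (3.55% to 23.1%) and 47.5% (40.5% to 54.7%) in brain at 24 h replicates 1 and 2, 30.9% (26.3% to 35.9%) in brain at 72 h and 24.0% (16.9% to 32.3%) in pia at 24 h. In control pia 6 of 10 cells and in control brain 3 of 3 cells held one. Thinning left out 1 of the 4 cells of control brain, and without thinning 3 of 4 held one. Brain at 24 h replicates 1 and 2 differed from each other by more than these counting intervals.

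Lymphoid clusters, which should lack these genes, gave the background. Their share at 500 UMIs was 0% to 2.05% in the brain and pia libraries, 13.8% and 20.7% in dura (control and 24 h), with median depths before thinning of 899 to 1877 UMIs. At a stricter limit of at least 10 of 500 UMIs from Ltf, Camp and Ngp, the Granulo_2 share was 75.3% and 70.4% in the dura libraries. It was 8.51% and 37.6% in brain at 24 h, 23.4% in brain at 72 h and 17.8% in pia at 24 h.

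**Figure D4:**
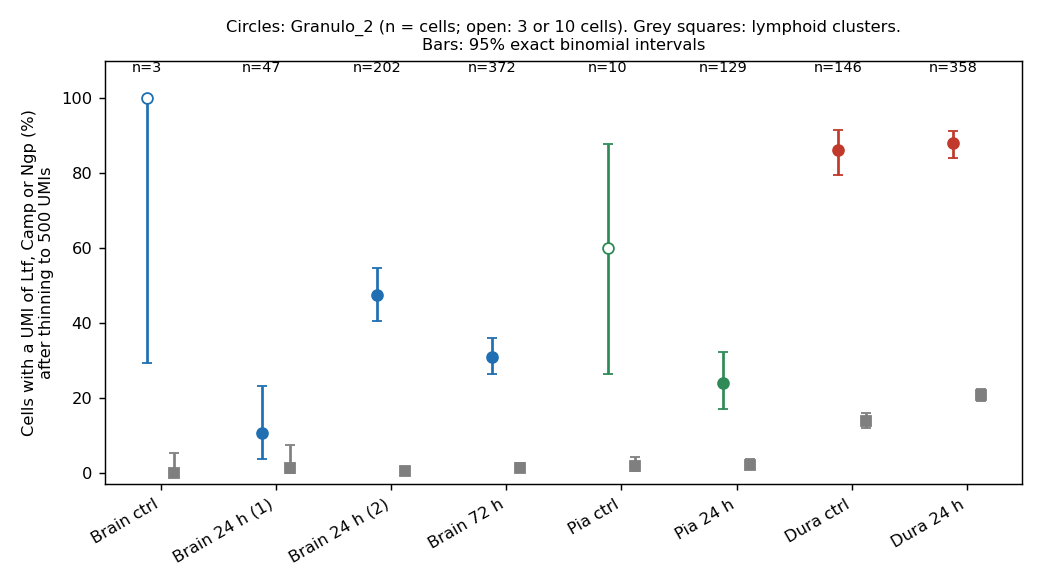
Share of Granulo_2 cells with a UMI of Ltf, Camp or Ngp after thinning to 500 UMIs (y axis, percent), with points for libraries, bars for the exact 95% interval and the share in lymphoid clusters beside it. Both dura libraries sit at 86.3% and 88.0%, above the 10.6% to 47.5% of the 4 larger brain and pia libraries.

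The mean share was 87.1% ± 1.19 (SD, n = 2) in dura and 28.3% ± 15.3 (SD, n = 4) in brain and pia, a difference of 58.9 percentage points with an exact two-sided permutation p of 0.133. This is the smallest p that 2 against 4 libraries allow. Without thinning the difference was 58.0 points, and at 1000 UMIs it was 40.2 points, with shares of 100% and 99.2% in dura and of 30.8%, 54.8%, 76.3% and 75.9% in the others. Thinning to 1000 UMIs left out 34 of 47, 14 of 202, 238 of 373 and 100 of 129 cells of those 4 libraries and 37 of 146 and 115 of 359 dura cells.

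Granulo_2 held cells of both kinds in each of the larger libraries, as the plot of cells shows. Per 500 UMIs, Ltf, Camp and Ngp had a median of 73.5 UMIs in control dura and 67.5 UMIs in dura at 24 h, and of 0 UMIs in each of the 4 brain and pia libraries. Cells with at least 10 of these UMIs held fewer transcripts of the mature neutrophil genes than cells below that limit. In dura at 24 h the means were 6.79 and 19.9 UMIs, and in control dura 5.15 and 17.0 UMIs. In brain at 24 h replicate 2 they were 4.07 and 27.8 UMIs, in brain at 72 h 3.23 and 18.1 UMIs, and in pia at 24 h 5.43 and 30.8 UMIs.

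Cell cycle genes went the other way in the same cells. Cells with at least 10 UMIs of Ltf, Camp and Ngp had a mean of 2.91 against 0.722 cell cycle UMIs in control dura, 2.25 against 0.802 in dura at 24 h, 2.87 against 0.832 in brain at 72 h, 1.54 against 0.595 in brain at 24 h replicate 2 and 1.17 against 0.481 in pia at 24 h. Within a fixed 500 UMIs, more of a set of genes leaves fewer for all others. These are descriptions of cells within a library, with no test.

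**Figure D5:**
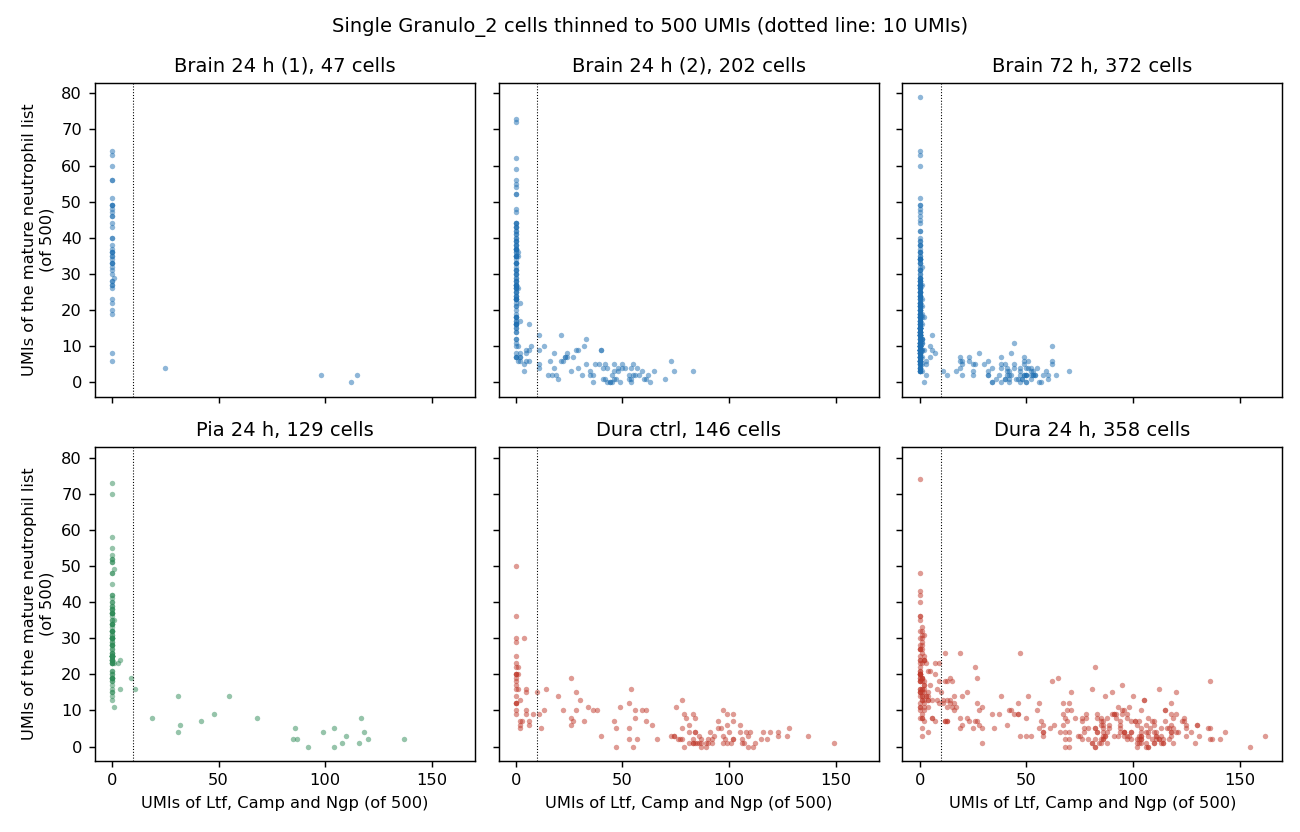
Granulo_2 cells thinned to 500 UMIs, with the UMIs of Ltf, Camp and Ngp (x axis) against those of 24 mature neutrophil genes (y axis), in panels for the 6 larger libraries with a dotted line at 10 UMIs. Cells with many granule UMIs held few mature neutrophil UMIs in each panel, and dura had more of the former.

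The genes whose Granulo_2 level over 6 libraries was most like the mean log2 level of Ltf, Camp and Ngp were, among 2012 genes with a mean of at least 50 CPM, Degs1 (Pearson r = 0.99), Aldh3b1 (0.98), Cyb5a, Ero1l, Arhgdib, Tpm3, Chil3, Itm2b, Smim14 and Pglyrp1 (0.94). Among the other members, Pglyrp1 was thus the nearest to the mean of Ltf, Camp and Ngp. Elane and Mpo each had an r of 0.55, Cd177 of 0.54, Hp of 0.50, Prtn3 of 0.39 and Lcn2 of -0.25. The 6 points share tissue and depth, so the values only describe likeness.

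In brain, levels in Granulo_2 at 72 h were compared with those at 24 h to follow the stage of infiltrating neutrophils over time. With 1 library at 72 h and 2 at 24 h, the spread was pooled over the groups, so the 72 h library is assumed to vary like the others. This left 2 residual degrees of freedom, and the spread was also shared across genes. A p-value here therefore hardly measures the spread of a single gene between libraries. By edgeR's quasi-likelihood test, 13 of 5375 genes differed (0.242%), 6 higher (0.112%) and 7 lower (0.13%) at 72 h. Of the 10 members, 3 were higher and 0 lower in this library, and the p-values carry no spread between samples at 72 h. Elane had a log2 fold change of 7.89 ± 1.08 (adjusted p = 1.86e-09), Mpo 8.62 ± 1.37 (adjusted p = 9.16e-07) and Prtn3 4.71 ± 0.82 (adjusted p = 1.90e-05).

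Elane, Mpo and Prtn3 passed the filter on low counts only through brain at 72 h and dura, where they are high. Their calls are therefore partly fixed by that filter. Since the 24 h libraries were at or near 0, the fitted fold of Elane and Mpo depends on the prior count. In UMIs, Elane had 263 at 72 h and 1 in both libraries at 24 h together, a ratio of 365 (95% counting interval 64.9 to 14465). Mpo had 76 against 0 UMIs, a ratio of 35.1 with 0 read as 3 counts over both 24 h libraries. The lower limit of its 95% counting interval was 27.9. Prtn3 had 156 against 6 UMIs, a ratio of 36.1 (16.2 to 99.8).

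The calls of Elane, Mpo and Prtn3 rested on 5 cells. Of the 373 Granulo_2 cells at 72 h, 5 had at least 10 UMIs of Elane, Mpo and Prtn3 and held 98.0% of such UMIs. Without the cells that pass this limit, an alternative added after seeing the data, 0 genes differed, Elane stood at 0.16 and Prtn3 at 0.70 (adjusted p = 1 for both), and Mpo fell under the filter on low counts. This limit is set on the same 3 genes, so the loss of their calls follows from it. In DESeq2, Elane alone passed (adjusted p = 0.000137), with Mpo and Prtn3 both at 0.0665. Erythroid markers summed to 2003 CPM in Granulo_2 of this library, against 0 and 370 CPM in brain at 24 h, and their part in these levels was not tested.

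The other 7 members did not pass between 72 h and 24 h. Their log2 fold changes were -1.62 ± 0.90 for Hp, -1.14 ± 1.42 for Ngp, -0.93 for Pglyrp1, -0.52 for Lcn2, -0.48 for Ltf, -0.33 for Cd177 and -0.26 for Camp, and those of Camp and Cd177 turned positive (0.052 and 0.019) without TMM scaling. Over all 10 members the median was -0.41, against 0.05 over all genes tested (0.40 without TMM). None of 21 cell cycle genes passed (median 1.03), and of 24 mature neutrophil genes Cd14 was lower (-4.27, adjusted p = 0.049). The 24 h replicates differed widely, and the number of genes that differed was 369 without replicate 2 and 79 without replicate 1. Without replicate 2, which leaves 1 library at each time, Lcn2 stood at 1.45 and Hp at -1.90 on the log2 scale. Without control dura or without dura at 24 h, which are no part of the contrast but enter the pooled spread, 2 genes differed, and Prtn3 did not pass (adjusted p = 0.0996 and 0.0819).

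Over all annotated cells, granule gene levels were compared between 24 h and control within tissue, to ask whether stroke changed their amount. Such sums move with the share of neutrophils among the sorted cells as well as with their RNA. Ngp stood at 51.7 CPM in control brain, 289 and 2449 CPM in brain at 24 h and 568 CPM at 72 h, at 478 and 913 CPM in pia (control and 24 h), and at 6336 and 11727 CPM in dura. Hp stood at 4.02 CPM in control brain, 67.8 and 289 CPM at 24 h and 140 CPM at 72 h, at 7.92 and 124 CPM in pia and at 209 and 437 CPM in dura. Every 24 h library was above its own control for both genes. The share of Granulo_2 cells moved alongside, from 0.0931% in control brain to 1.03% and 5.82% at 24 h and 6.17% at 72 h, from 0.356% to 3.29% in pia and from 5.19% to 7.95% in dura. Within Granulo_2, the Ngp level given above was lower at 24 h than in controls in brain and pia, whose controls hold 4 and 10 such cells, and higher in dura.

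In the 4 libraries at 24 h, Prtn3 and all 7 secondary and tertiary granule genes were above their own control in 4 of 4, as were 17.3% of the 11417 genes tested. Both brain libraries share the control brain library. Mpo was above in 3 of 4 and Elane in 2 of 4. Elane in dura stood at 157 CPM in controls and 94.4 CPM at 24 h, and in brain at 0.144 CPM in controls, 0.115 and 5.65 CPM at 24 h and 37.4 CPM at 72 h. In pia Elane was at 0 CPM in controls and 1.70 CPM at 24 h. Over all barcodes, with or without a cluster, Elane in dura went the other way, with 603 CPM in controls and 1302 CPM at 24 h. In pia it then stood at 1.37 and 90.1 CPM.

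None of these differences passed the test, in which tissue was a block. By edgeR's quasi-likelihood test 0 of 11417 genes differed (0%), while 409 genes had an unadjusted p under 0.05. Without brain at 24 h replicate 2, 44 genes and 0 members passed. DESeq2 called 64 genes, and of the members Hp alone (log2 fold change 3.52, adjusted p = 0.00133). Among the 9 members tested (Mpo fell under the filter) 0 passed, although all 9 estimates were positive, with a median of 2.51 against 0.05 over all genes. Hp had 3.47 ± 1.05 (unadjusted p = 0.0175, adjusted p = 0.985), Ngp 1.98 ± 1.17 and Lcn2 2.61 ± 2.15. Without the filter on low counts 184 of 21198 genes and 6 of 10 members passed (Prtn3, Ltf, Lcn2, Pglyrp1, Cd177 and Hp). Adjusted p for Hp ranged from 1.04e-06 to 1 over the alternatives. Elane turned negative without brain at 24 h replicate 2 (-0.23), and Camp stood at -0.034 without Granulo_2 cells.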

How the data were processed

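Single-cell libraries were 10x Genomics preparations of sorted leukocytes. Per the submitters' processing notes, the deposited UMI counts per gene and barcode were made by the authors with Cell Ranger 6.0 on mm10. The authors' deposited annotation supplied the clusters. They had filtered cells by gene number and mitochondrial share and removed doublets with scDblFinder, so doublets were not called again. The members and gene lists were chosen with earlier results of these data known.

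Counts of the 30406 genes in both gene lists were summed per library and cluster. Libraries with at least 30 Granulo_2 cells were tested with edgeR 4.0.16 (filterByExpr, TMM, robust quasi-likelihood fit, two-sided), adjusted after Benjamini-Hochberg over all genes tested, and called where the change was at least 2-fold and the adjusted p under 0.05. Brain and pia were pooled against dura, 24 h was compared with control with tissue as a block, and brain at 72 h with 24 h. DESeq2 1.42.0, other scaling, filters, cell depths and left-out libraries were alternatives. Named genes were the 10 members, the 4 genes of each list with the highest mean CPM in Granulo_2, the 10 genes most like Ltf, Camp and Ngp, and markers. Other list members and immunoglobulin genes named were chosen after their values were seen. Of 34 further granule genes 32 were matched. Intervals and floors cover counting error only. The fits were tested on simulated data with 4-fold changes and the same spread for every gene, a setting simpler than these data. They missed part of these changes in each comparison, and most of them for brain at 72 h against 24 h. Some unchanged genes were also called in each comparison. The share missed in the real data may differ.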

Additional observations from a re-analysis of the deposited data

Results flagged for a closer look

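In Granulo_2, brain at 72 h stood far from the other 3 of 4 brain and pia libraries for Elane (536 CPM), Mpo (155 CPM) and Prtn3 (318 CPM). Over all annotated cells, dura at 24 h stood far from the other 3 libraries at 24 h for Elane (94.4 CPM) and Mpo (60.3 CPM). Chance gives such a gap in about 1 in 20 groups of like samples, and 20 groups were looked at. These groups mix tissues, so that rate need not hold here, and these genes share cells.

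Among annotated cells, Elane was lower in dura at 24 h (94.4 CPM) than in control dura (157 CPM). In pia it was higher at 24 h than in its control. Over all barcodes, with or without a cluster, Elane was higher at 24 h in dura too, at 1302 CPM against 603 CPM in control dura. The difference between tissues was not tested.

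Barcodes without a cluster, which entered the comparison of 24 h with control only in an alternative (0 genes called), held Elane, Mpo and Prtn3 together at 441 CPM in brain at 24 h replicate 2 and 300.1 CPM in brain at 72 h, against 93.1 CPM in control brain, whereas brain at 24 h replicate 1 stood at 6.49 CPM. They stood at 1199 CPM in pia at 24 h against 11.8 CPM in control pia, and at 10234 CPM in dura at 24 h against 5741 CPM in control dura.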

How the results depend on the processing

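The comparison of dura with brain and pia gave 105 genes without TMM and 354 without the filter on low counts. It gave 18 genes with libraries of at least 10 Granulo_2 cells and 3 with cells thinned to 500 UMIs. It gave 21 with the 24 h libraries only and 12 to 753 with a library left out. With the listed kit version as a covariate it gave 71, but the shared barcodes group the libraries otherwise than this listing. Chosen after seeing the data, the longer gene list alone gave 412 and leaving out cells rich in primary granule UMIs 80. Members called were 1 of 10 with DESeq2 (154 of 4365 genes) or without the filter (354 of 13685 genes). They were 5 of 10 with the longer gene list (412 of 2339 genes) and 0 to 3 with a library left out. With that list Lcn2 turned to 0.52 and Hp to -0.15.

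For 24 h against control, DESeq2 gave 64 genes and 1 member, no filter 184 and 6, the gene list as an added covariate 47, the longer gene list alone 44, and left-out libraries 0 to 44 genes and 0 members. Elane turned to -0.23 without brain at 24 h replicate 2 (the same libraries as the longer gene list), -1.05 without the tissue block and -0.30 with the gene list, and Camp to -0.034 without Granulo_2 cells. With a library left out, Elane ranged from -0.23 to 4.40.

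For 72 h against 24 h in brain, DESeq2 gave 1 gene, which was a member, no TMM 6 (6 higher, 0 lower), at least 10 cells 3, thinned cells 0 and 0 members, cells without high primary UMIs 0 and 0 members, and left-out libraries 2 to 369 genes and 2 to 5 members. Without brain at 24 h replicate 2, Ltf turned to 0.079, Camp to 0.26, Lcn2 to 1.45 and Cd177 to 0.86, the upper ends of their ranges with a library left out, whose lower ends were -0.94, -0.70, -1.37 and -0.97. Without TMM, Camp turned to 0.052 and Cd177 to 0.019, and with thinned cells Camp to 0.071. The ratio of summed Ltf, Camp and Ngp was 4.95 with each cell weighted equally, and the share difference was 40.2 points at 1000 UMIs. The cause of these shifts was not tested. Depth limits the controls of brain and pia, where 0 UMIs of a gene in Granulo_2 allow 532 and 119 CPM. No paired analysis was possible because replicate numbers above 1 exist only for brain at 24 h.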
